A study of Homo sapiens with 12 samples.

Results

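The comparison described here sets MDA-MB-231 cells given an siRNA against FECH beside MDA-MB-231 cells given a control siRNA, all of them in the presence of 5-aminolevulinic acid (5-ALA). It rests on 6 of the 12 arrays of the study, 3 in each of these groups, chosen by their labelled treatment. MDA-MB-231 is an established human breast cancer line of mesenchymal, hormone receptor-negative character. The FECH siRNA cells received 15 nM of the siRNA and 0.1 mM 5-ALA. The control siRNA cells received 15 nM of the commercial control siRNA, labelled Allstar, with the same 0.1 mM 5-ALA. The other 6 arrays were 3 from cells given 0.1 mM 5-ALA only and 3 from untreated cells. They entered the fit for its estimate of the spread, and their levels are quoted for some genes only. A rise or fall is against control siRNA, whose own level lay off the 5-ALA only level for some genes. Total RNA was measured as array signal, and log2 of that signal was compared for 12151 genes. Only 1 siRNA sequence and 1 control siRNA were used, and the labels do not say whether the 3 samples of a group came from separate cultures, so a p-value here reflects only how far these samples spread, which may be technical.

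Heme is made from 5-ALA in a chain of enzymes that begins and ends in mitochondria. ALAS1 makes 5-ALA and is the step that heme itself represses, and FECH (ferrochelatase) completes heme by placing iron in protoporphyrin IX. HMOX1 (heme oxygenase 1) breaks heme down and is a classical heme-induced gene. Protoporphyrin that is not converted to heme is a photosensitiser, and cells given 5-ALA accumulate it.

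The siRNA sequence is shown because 1 sequence defines the FECH siRNA group. It has 19 nucleotides, and the capitals mark bases 2 to 8 of each strand, the seed by which a guide strand is known to contact other transcripts. The labels describe it as covering FECH mRNA but do not state which strand is loaded as the guide, so both are given. The strand as written in the labels comes first, then its complement.
Strand as the labels give it: gAAUAUCCucuugguuccg
Complementary strand: cGGAACCAagaggauauuc
Among 2370 mature human miRNAs of RefSeq, 0 share the 7 seed bases of either strand, and 0 share the first 6 of them. This is a statement about those letters and says nothing about which transcripts the siRNA meets.

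The signal of FECH checks the labels. The log2 signal of FECH, probe set 8023466 on chromosome 18, was 6.55, 6.62 and 6.43 with FECH siRNA, against 8.60, 8.54 and 8.51 with control siRNA. The groups did not overlap. FECH was 4.06-fold lower (log2 fold change -2.02, SE 0.08, limma adjusted p = 1.7e-09), and its level with 5-ALA only was 8.50 and in untreated cells 8.49. The FECH siRNA values lie below 7.29, the median of all signals that served as the filter level, so they could be background, and the fold is one of signals. For FECH alone, an exact two-sided permutation test over the 6 arrays returned p = 0.1, the smallest p that 3 arrays a group allow. In bulk RNA, fewer cells that carry a transcript and less of it per cell cannot be told apart, here and for every gene below.

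Median log2 signals of the 12 arrays lay between 7.25 and 7.34. Across genes, the 3 FECH siRNA arrays correlated with each other at 0.992 to 0.996 and the 3 control siRNA arrays at 0.992 to 0.994, and arrays of the 2 groups at 0.956 to 0.965. The median SD within a group was 0.08 on the log2 scale in each. Arrays 1 to 3 of a group belong to the runs of sample numbers 1 to 4, 5 to 8 and 9 to 12. Untreated replicate 3, which enters the SE of each gene and the untreated means, stood apart: 416 genes lay over 0.5 on the log2 scale from the mean of the other arrays of its group, against 10 to 115 genes on the other 11 arrays, and its limma array weight, which is lower the further an array lies from its group means, was 0.36. With only the 6 arrays of FECH siRNA and control siRNA in the fit, 2637 genes rose and 2252 fell. With 3 arrays a group, precision is limited by their number.

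A total of 4651 of 12151 genes, or 38.3%, had a limma adjusted p below 0.05 and are called past the test here. The signal rose for 2483 (20.4%) and fell for 2168 (17.8%). Rises and falls were close in number, and the median log2 fold change over all genes was 0. RMA processing brings arrays to a common scale, so this balance and this median depend on that step. Centring each array on its median gave 2683 higher and 1835 lower. Most changes were small. The median absolute log2 fold change was 0.16, and 1102 genes passed with a change over 1.5-fold, of which 517 rose and 585 fell. Past 2-fold, 116 genes rose and 170 fell. Past 3-fold, 21 rose and 26 fell. The groups did not overlap for 6224 genes (51.2%). Of the 116 genes that rose over 2-fold, 28 had a control siRNA mean below the filter level, and of the 170 that fell, 23 had a FECH siRNA mean below it.

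**Figure D1:**
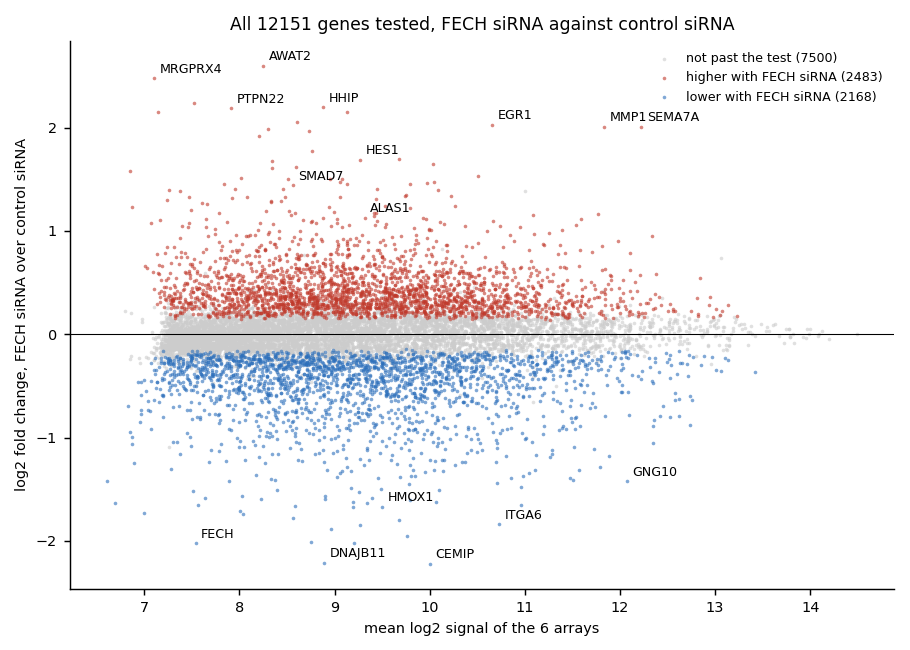
Mean log2 signal of the 6 arrays (horizontal axis) against the log2 fold change of FECH siRNA over control siRNA (vertical axis), 1 point a gene for 12151 genes. Red points are the 2483 genes past the limma test and higher with FECH siRNA, blue points the 2168 that are lower, and grey points the rest. The points named are FECH at -2.02, the heme genes ALAS1 and HMOX1, and genes that led a direction or are discussed in the text.

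With FECH siRNA, ALAS1 rose and HMOX1 fell. ALAS1, which catalyses the first, rate-limiting step (probe set 8080184), read 9.90, 9.88 and 9.85 with FECH siRNA, against 8.89, 8.61 and 8.73 with control siRNA. The groups did not overlap, and ALAS1 was 2.19-fold higher (log2 fold change 1.13, SE 0.11, limma adjusted p = 4.0e-06), with means of 8.71 with 5-ALA only and 9.46 in untreated cells. The untreated arrays read 9.34, 9.29 and 9.75. HMOX1, the enzyme that degrades heme, read 8.61, 8.69 and 8.69 with FECH siRNA, against 10.33, 10.12 and 10.55 with control siRNA. The control siRNA arrays stood high and the FECH siRNA arrays low, and HMOX1 was 3.18-fold lower (log2 fold change -1.67, SE 0.13, limma adjusted p = 4.2e-07). Its mean of 8.67 with FECH siRNA lies beside 8.68 in untreated cells, and the mean with 5-ALA only was 10.69. These comparisons share arrays, so the levels are given side by side and nothing is drawn from their likeness.

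Of the 7 heme synthesis genes tested, only ALAS1 rose and only FECH fell, and the median change over the 7 was -0.14 on the log2 scale. The other 5 did not pass, and over all genes tested 20.4% rose and 17.8% fell. ALAD, which joins 5-ALA molecules into porphobilinogen, averaged 7.79 with FECH siRNA and 7.95 with control siRNA (adjusted p = 0.0996), and UROD 10.87 with FECH siRNA and 10.78 with control siRNA (adjusted p = 0.28). UROS, which closes the porphyrin ring, averaged 10.21 with FECH siRNA and 10.46 with control siRNA, adjusted p = 0.252, and passed with the runs as a block (adjusted p = 0.00191), which brings the number of heme synthesis genes lower to 2. CPOX averaged 9.89 with FECH siRNA and 10.01 with control siRNA, adjusted p = 0.516.

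The 20 largest rises included genes for secreted and surface proteins, described first, and for transcription factors and signalling proteins. HHIP, which binds and dampens hedgehog ligands, had log2 signals of 10.05, 9.92 and 9.98 with FECH siRNA, against 7.94, 7.84 and 7.56 with control siRNA, 4.60-fold higher (log2 fold change 2.20, SE 0.09, limma adjusted p = 3.7e-09). SEMA7A, a membrane-anchored semaphorin, was among the brightest genes that rose and read 13.18, 13.16 and 13.35 with FECH siRNA, against 11.17, 11.03 and 11.46 with control siRNA. It was 4.03-fold higher (log2 fold change 2.01, SE 0.15, limma adjusted p = 4.3e-07). MMP1, the interstitial collagenase, read 12.83, 12.92 and 12.75 with FECH siRNA, against 10.77, 10.62 and 11.09 with control siRNA, and was 4.03-fold higher (log2 fold change 2.01, SE 0.11, limma adjusted p = 2.8e-08). In each of these 3 genes all FECH siRNA arrays stood above all control siRNA arrays. The rule for the 20 largest rises and 20 largest falls required such separation of every member, so it is no added result. The groups did not overlap for 51.2% of all genes. MMP8 and MMP3, other members of the metalloproteinase family, were 3.21-fold and 2.85-fold higher, and MMP3's control siRNA mean of 7.26 lies below the filter level.

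EGR1, an immediate-early transcription factor that growth factor signalling switches on, read 11.45, 11.73 and 11.83 with FECH siRNA, against 9.72, 9.82 and 9.38 with control siRNA, 4.09-fold higher (log2 fold change 2.03, SE 0.33, limma adjusted p = 2.8e-04). Its untreated arrays, which enter the SE, read 10.46, 10.62 and 8.90. HES1, the repressor that Notch signalling induces, read 10.46, 9.99 and 9.89 with FECH siRNA, against 8.45, 8.36 and 8.47 with control siRNA, 3.22-fold higher (log2 fold change 1.69, SE 0.13, limma adjusted p = 3.3e-07). The FECH siRNA arrays all stood higher, with the first above the others. FOSL1, an AP-1 subunit of high signal, averaged 12.06 with FECH siRNA and 11.01 with control siRNA, and PPP1R15A, a regulatory subunit that reverses eIF2 alpha phosphorylation, averaged 12.15 with FECH siRNA and 11.03 with control siRNA. Both passed, at 2.08-fold and 2.18-fold higher. HOXB9, a homeobox transcription factor, was 3.26-fold higher (log2 fold change 1.70, SE 0.08, limma adjusted p = 1.4e-08).

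Receptors and signalling adapters among the rises included GPR65, a proton-sensing G protein-coupled receptor, which read 9.69, 9.46 and 9.71 with FECH siRNA, against 7.59, 7.34 and 7.79 with control siRNA, 4.13-fold higher (log2 fold change 2.05, SE 0.21, limma adjusted p = 4.9e-06). CD22, best known as a B cell inhibitory receptor, averaged 9.72 with FECH siRNA and 7.75 with control siRNA and was 3.92-fold higher. PIK3R1, the regulatory subunit of PI3 kinase, read 10.87, 10.86 and 10.86 with FECH siRNA, against 9.37, 9.03 and 9.23 with control siRNA, and its FECH siRNA arrays agreed to 0.01. It was 3.14-fold higher (log2 fold change 1.65, SE 0.19, limma adjusted p = 1.8e-05). SLC16A6, a monocarboxylate transporter family member, read 10.48, 10.15 and 9.99 with FECH siRNA, against 8.43, 7.81 and 7.93 with control siRNA. It was 4.44-fold higher (log2 fold change 2.15, SE 0.44, limma adjusted p = 0.00169), the widest SE of the 20 largest rises, and its untreated arrays read 8.75, 7.94 and 6.19. Further rises from this rank were PLEK2 (2.90-fold), TMEM156 (3.41-fold), F2RL2 (2.84-fold), GEM (2.78-fold) and LPXN (2.77-fold), and the zinc finger genes ZNF267, ZNF138 and ZNF367 at 3.07-fold, 3.05-fold and 2.83-fold higher. Zinc finger genes have close copies whose transcripts can share probes, so their values are uncertain. Among the 20 largest rises, only SEMA7A, HES1 and MMP8 averaged higher with control siRNA than with 5-ALA only. TMEM156 averaged 9.65 with FECH siRNA, 7.88 with control siRNA and 8.86 with 5-ALA only, and PLEK2 11.28, 9.74 and 10.41 in that order. With 5-ALA only, EGR1, GPR65, HOXB9 and MMP1 averaged 10.49, 8.34, 9.50 and 11.48, between their FECH siRNA and control siRNA means. Some large rises had control siRNA signals below the filter level, among them MRGPRX4, PTPN22 and MPP4. MRGPRX4, a sensory receptor, averaged 8.34 with FECH siRNA and 5.87 with control siRNA, and PTPN22, a tyrosine phosphatase of immune cells, averaged 9.01 with FECH siRNA and 6.82 with control siRNA. MPP4, a membrane-associated scaffold protein, read 8.22, 8.38 and 8.06 with FECH siRNA, against 6.02, 6.04 and 6.15 with control siRNA. Their changes of 5.56-fold, 4.56-fold and 4.43-fold are ratios of signals.

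Genes of the endoplasmic reticulum are described first among the falls, then those of the cell surface and of metabolism. DNAJB11, a co-chaperone of the lumenal chaperone BiP, read 7.71, 7.89 and 7.76 with FECH siRNA, against 10.13, 9.97 and 9.88 with control siRNA, and was 4.62-fold lower (log2 fold change -2.21, SE 0.08, limma adjusted p = 1.7e-09). EDEM3, which trims mannose from misfolded glycoproteins, was 3.69-fold lower (log2 fold change -1.88, SE 0.07, limma adjusted p = 1.7e-09). SARAF, a regulator of store-operated calcium entry, averaged 8.99 with FECH siRNA and 10.59 with control siRNA, 3.04-fold lower (log2 fold change -1.60, SE 0.06, limma adjusted p = 1.7e-09). CALU, a calcium-binding protein of the secretory pathway, read 11.05, 10.89 and 10.79 with FECH siRNA, against 12.29, 12.27 and 12.08 with control siRNA. The groups of all 4 genes did not overlap, which the naming rule required of DNAJB11, EDEM3 and SARAF and which held for 51.2% of all genes. TFG, a component of endoplasmic reticulum exit sites, was 3.07-fold lower.

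CEMIP, which acts in hyaluronan breakdown, read 8.87, 9.13 and 8.67 with FECH siRNA, against 11.06, 11.19 and 11.09 with control siRNA and was 4.66-fold lower (log2 fold change -2.22, SE 0.12, limma adjusted p = 2.2e-08). ITGA6, an integrin alpha subunit that binds laminin, averaged 9.81 with FECH siRNA and 11.65 with control siRNA and was 3.58-fold lower. MAD2L1, a spindle checkpoint protein, was 4.02-fold lower, and SLC39A6, a zinc importer, read 8.47, 8.29 and 8.32 with FECH siRNA, against 10.14, 10.00 and 9.97 with control siRNA, 3.19-fold lower (log2 fold change -1.67, SE 0.07, limma adjusted p = 2.6e-09). CFB, complement factor B, is on 3 probe sets, with differences of -1.65 to -1.64 on the log2 scale. LIN7C, a scaffold of polarised membranes, was 3.49-fold lower, and GMFB and OLR1 were 3.87-fold and 3.44-fold lower.

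MPC2, a subunit of the carrier that brings pyruvate into mitochondria, had log2 signals of 8.32, 8.36 and 7.89 with FECH siRNA, against 10.27, 10.19 and 10.19 with control siRNA. All 3 FECH siRNA arrays were lower, the third most, and MPC2 was 4.06-fold lower (log2 fold change -2.02, SE 0.10, limma adjusted p = 1.4e-08). CRAT, carnitine acetyltransferase, averaged 8.53 with FECH siRNA and 10.16 with control siRNA (3.09-fold lower), and COQ10B, a coenzyme Q-binding protein, 8.38 with FECH siRNA and 10.00 with control siRNA (3.07-fold lower). UGDH, which makes UDP-glucuronate, read 9.99, 9.95 and 10.03 with FECH siRNA, against 11.46, 11.33 and 11.49 with control siRNA. The FECH siRNA arrays all stood lower, and UGDH was 2.71-fold lower (log2 fold change -1.44, SE 0.06, limma adjusted p = 2.6e-09). Among genes of the top 10% of signal, GNG10, a G protein gamma subunit, was 2.68-fold lower, CYBRD1, a ferric reductase, 2.66-fold lower and TFPI2, a serine protease inhibitor, 2.23-fold higher.

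**Figure D2:**
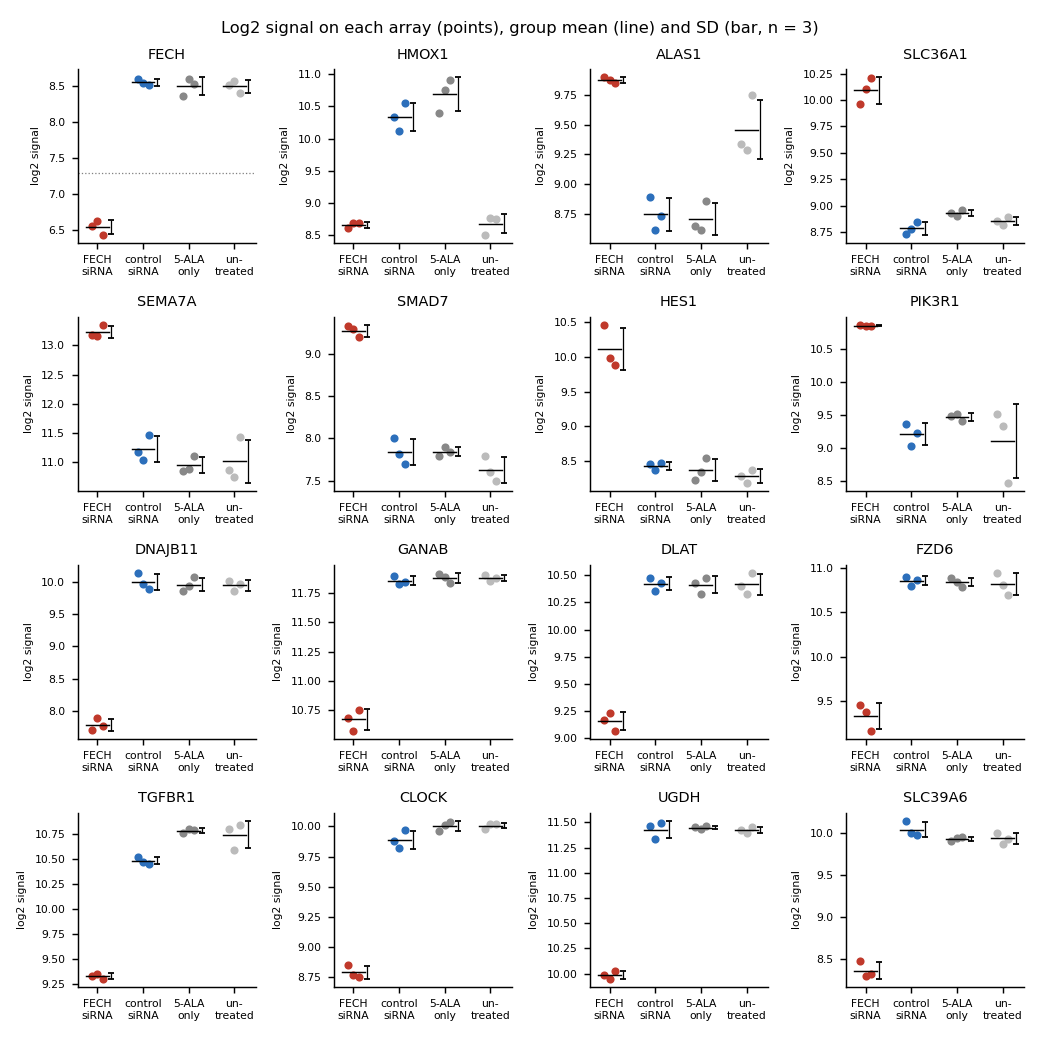
Log2 signal (vertical axis) of 16 genes on each of the 12 arrays, by treatment, with FECH siRNA first and control siRNA next in each panel. Points are arrays, the line is the mean and the bar the SD (n = 3); the dotted line in the FECH panel is the filter level. In all 16 panels the FECH siRNA arrays lie outside the range of the control siRNA arrays. The 16 genes were picked from those past the test, so this separation lends no separate support. The groups of 51.2% of all genes tested did not overlap either.

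The change within each run of sample numbers differed in its spread between genes. The 3 differences of FECH were -2.06, -1.93 and -2.08, those of HHIP 2.11, 2.08 and 2.42, and those of DNAJB11 -2.42, -2.09 and -2.12. The differences were wider apart for EGR1 at 1.74, 1.91 and 2.45, for MMP1 at 2.05, 2.31 and 1.67, and for HES1 at 2.01, 1.63 and 1.42. Of the 4651 genes past the test, 4644 had the same sign in all 3 runs, as did 286 of the 286 that passed with a change over 2-fold. Of the 7500 that did not pass, 3841 did. The genes were sorted by a test on these same arrays, so these counts lend it no separate support. With the runs as a block in the fit, 5683 genes (46.8%) passed. Within single runs, 92, 154 and 113 genes differed by over 2-fold upward and 190, 159 and 190 downward. MMP3 (SD of the 3 differences 0.45), CYP24A1, a vitamin D-inactivating enzyme (0.44), EGR1 (0.37) and the histone gene H2BC14 (0.37) were among the genes past 2-fold that varied most. CYP24A1 differed by 0.91, 1.63 and 0.83 in the 3 runs.

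**Figure D3:**
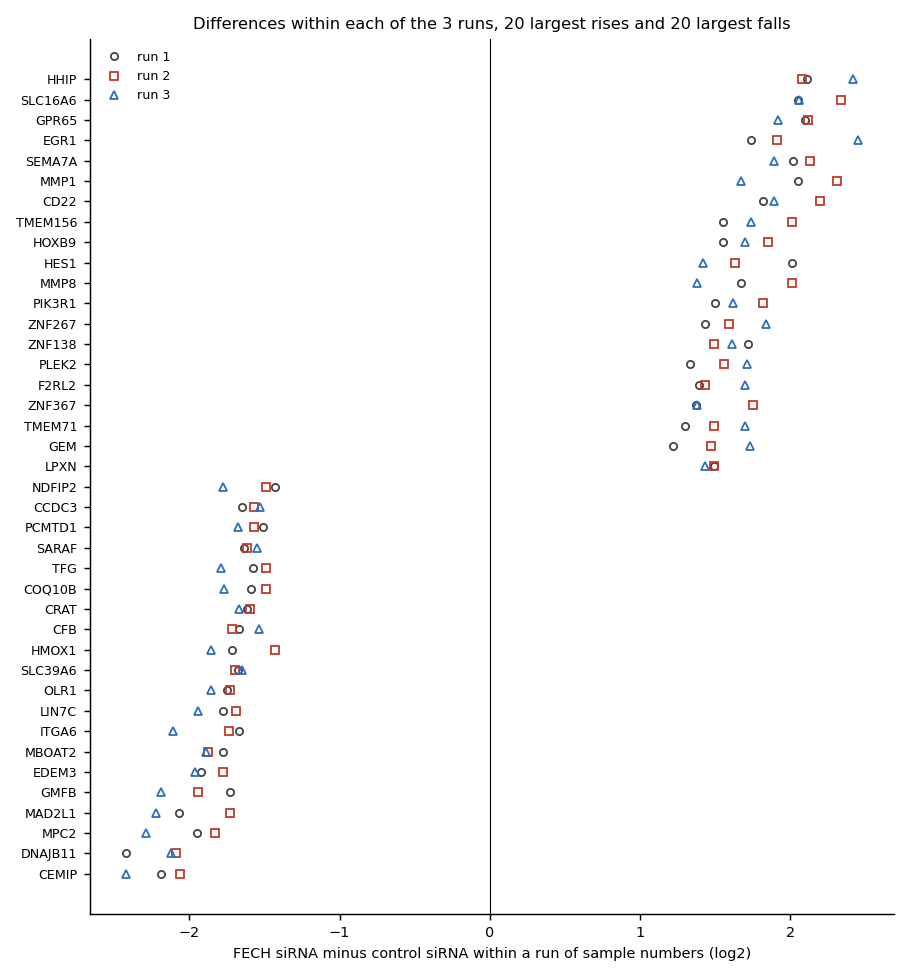
Difference of FECH siRNA minus control siRNA within each run (horizontal axis, log2) for the 20 largest rises and the 20 largest falls by the naming rule; the 3 symbols are the 3 runs. The rule takes only genes with non-overlapping groups, so all points lie on the side of their group by construction.

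Gene lists give the breadth of the change. For each, the counts of members past the test stand beside the shares over all genes tested, 20.4% higher and 17.8% lower, and a median log2 fold change of 0. The lists were chosen with earlier results of these data known, and nothing is drawn beyond their counts.

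The cytosolic aminoacyl-tRNA synthetases, which charge tRNAs with amino acids, included 8 that rose and 0 that fell by limma among 20 tested, median 0.14. At an unadjusted p below 0.05, 9 were higher and 2 lower. VARS1, SARS1 and MARS1 were 1.40-, 1.40- and 1.36-fold higher. They averaged 10.63, 11.05 and 10.78 with FECH siRNA and 10.14, 10.56 and 10.33 with control siRNA. Their means with 5-ALA only lay between, at 10.34, 10.87 and 10.62. Leaving out FECH siRNA replicate 2 or control siRNA replicate 2 leaves 5 higher, and leaving out control siRNA replicate 2, or fitting the runs as a block, makes 1 lower. Ribosome biogenesis genes included 12 that rose and 2 that fell among 26 tested, median 0.19, and NOLC1, a nucleolar scaffold, was 1.52-fold higher (log2 fold change 0.60, SE 0.07, limma adjusted p = 2.1e-05). NCL, the nucleolar protein nucleolin, fell (1.40-fold lower). Without FECH siRNA replicate 2 the number higher was 7 and without control siRNA replicate 2 it was 6. Of 38 translation initiation factors 7 rose and 1 fell, EIF3J (1.78-fold lower), median 0.06; with the runs as a block, 3 fell.

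Genes that supply nucleotides and amino acids showed both directions. Of 26 purine and pyrimidine synthesis genes 8 rose and 2 fell (median 0.07), with PPAT, the first enzyme of purine synthesis, 1.52-fold higher (log2 fold change 0.60, SE 0.10, limma adjusted p = 3.0e-04). Of 17 amino acid transporters 6 rose and 5 fell, median 0.04. SLC36A1, a proton-coupled transporter of small amino acids, read 9.96, 10.10 and 10.21 with FECH siRNA, against 8.73, 8.78 and 8.85 with control siRNA, 2.48-fold higher (log2 fold change 1.31, SE 0.07, limma adjusted p = 1.4e-08). SLC43A2, a neutral amino acid transporter, read 8.81, 8.79 and 8.67 with FECH siRNA, against 10.04, 10.00 and 9.88 with control siRNA, 2.33-fold lower (log2 fold change -1.22, SE 0.09, limma adjusted p = 2.2e-07). Serine, glycine and one-carbon genes included 5 that rose and 6 that fell among 23 tested, median 0.05. PHGDH, the first enzyme of serine synthesis, was 1.56-fold higher, and MAT2B, the regulatory subunit of methionine adenosyltransferase, 1.88-fold lower. PHGDH averaged 8.44 with FECH siRNA, 7.80 with control siRNA and 8.29 with 5-ALA only. Without control siRNA replicate 2 or 3, 3 rose.

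Of 35 N-glycosylation genes tested, 2 rose and 10 fell, median -0.09. GANAB, glucosidase II alpha, which trims glucose from new glycoproteins, read 10.68, 10.57 and 10.75 with FECH siRNA, against 11.90, 11.83 and 11.85 with control siRNA, 2.28-fold lower (log2 fold change -1.19, SE 0.06, limma adjusted p = 1.4e-08). B4GALT1, a galactosyltransferase, was 2.05-fold lower, and the oligosaccharyltransferase subunits RPN1 and STT3B were 1.68-fold and 1.47-fold lower. COPI and COPII vesicle genes included 7 that rose and 5 that fell among 34 tested (median 0.01). COPB2 and MCFD2 were 1.65-fold and 1.59-fold lower, and SEC24A and KDELR3 were 1.47-fold and 1.45-fold higher. SEC24A averaged 10.26 with FECH siRNA and 10.33 with 5-ALA only, against 9.71 with control siRNA.

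Peroxisome genes included 1 that rose (PEX3) and 13 that fell among 30 tested, median -0.2. PHYH, which starts phytanic acid alpha-oxidation, read 7.26, 7.26 and 7.31 with FECH siRNA, against 8.35, 8.33 and 8.34 with control siRNA, 2.09-fold lower (log2 fold change -1.06, SE 0.06, limma adjusted p = 4.8e-08), and its FECH siRNA values lie at the filter level, so that its fold holds for the signal only. Without FECH siRNA replicate 1 or 2 or control siRNA replicate 2, 0 rose, and without control siRNA replicate 1, 2 did. In the pyruvate and citric acid cycle list 7 of 37 rose and 9 fell, median -0.04. DLAT, the E2 subunit of pyruvate dehydrogenase, read 9.17, 9.23 and 9.07 with FECH siRNA, against 10.48, 10.36 and 10.43 with control siRNA, 2.41-fold lower (log2 fold change -1.27, SE 0.07, limma adjusted p = 2.3e-08). MPC1, the partner of MPC2, was 1.82-fold higher (log2 fold change 0.86, SE 0.09, limma adjusted p = 8.7e-06), and PDK1, which phosphorylates pyruvate dehydrogenase, was 1.61-fold higher. With FECH siRNA replicate 2 or 3 left out, 4 rose. Mitochondrial import genes included 10 that rose and 6 that fell among 38 tested (median 0.1), and with the runs as a block 17 rose. Mitochondrial dynamics genes included 5 that rose and 6 that fell among 22 tested (median -0.01), and without FECH siRNA replicate 2 or control siRNA replicate 2, 3 rose. Sphingolipid genes included 6 that rose and 6 that fell among 33 tested, median 0.04. ST3GAL5, which makes ganglioside GM3, was 2.50-fold lower (log2 fold change -1.32, SE 0.10, limma adjusted p = 4.1e-07), and SPHK1, sphingosine kinase, 1.83-fold higher (log2 fold change 0.87, SE 0.11, limma adjusted p = 3.8e-05). Without FECH siRNA replicate 1 the number of sphingolipid genes higher was 2, and without FECH siRNA replicate 2 or control siRNA replicate 2 or 3 it was 3.

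TGF-beta and BMP genes included 3 that rose and 13 that fell among 32 tested, median -0.14. TGFBR1, the type I TGF-beta receptor, read 9.33, 9.35 and 9.30 with FECH siRNA, against 10.52, 10.47 and 10.45 with control siRNA, 2.22-fold lower (log2 fold change -1.15, SE 0.07, limma adjusted p = 3.1e-08). SMAD7, an inhibitor of that receptor and a target of its signalling, rose, with 9.33, 9.30 and 9.20 with FECH siRNA, against 8.00, 7.82 and 7.70 with control siRNA, 2.70-fold higher (log2 fold change 1.44, SE 0.09, limma adjusted p = 5.5e-08). FST, which binds activin, was 2.12-fold lower and TGFB1 1.74-fold lower. FST averaged 9.53 with FECH siRNA and 9.64 with 5-ALA only, against 10.62 with control siRNA. TGFB1 averaged 9.10 with FECH siRNA and 9.51 with 5-ALA only, against 9.90 with control siRNA. Wnt genes included 8 that rose and 9 that fell among 34 tested (median -0.06), with FZD6, a Wnt receptor, 2.85-fold lower (log2 fold change -1.51, SE 0.08, limma adjusted p = 1.9e-08), and LEF1, a transcription factor of the pathway, 1.61-fold higher. Hippo genes included 11 that rose and 8 that fell among 31 tested (median 0.1), with NT5E 1.72-fold higher and CRIM1 2.02-fold lower. Notch genes included 5 that rose and 3 that fell among 23 tested (median 0), and without FECH siRNA replicate 2 or 3 or control siRNA replicate 2, 3 rose. In the hedgehog list 3 of 14 rose, HHIP, GLI3 and GLI2, and 3 fell (median -0.09). The ligand SHH was 1.69-fold lower (log2 fold change -0.76, SE 0.06, limma adjusted p = 5.4e-07) and the receptor PTCH1 1.38-fold lower. SHH averaged 8.28 with FECH siRNA and 8.66 with 5-ALA only, against 9.04 with control siRNA. Semaphorin, plexin and neuropilin genes included 6 that rose and 8 that fell among 24 tested, median -0.06. SEMA3C was 2.25-fold lower and SEMA3A 1.82-fold higher, both of them secreted guidance cues. Without FECH siRNA replicate 1 or control siRNA replicate 3, 5 fell.

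Ephrins and Eph receptors included 3 that rose and 0 that fell by limma among 12 tested, median 0.05, and at an unadjusted p below 0.05, 4 were higher and 0 lower. EPHA4, a receptor tyrosine kinase, was 1.90-fold higher (log2 fold change 0.92, SE 0.13, limma adjusted p = 7.7e-05). Without FECH siRNA replicate 3 or control siRNA replicate 2, 1 rose, and with the runs as a block 5 rose and 1 fell. Protein tyrosine phosphatases included 6 that rose and 8 that fell among 25 tested (median -0.03), and PTPN11, which relays growth factor signals to the Ras pathway, was 1.95-fold lower (log2 fold change -0.96, SE 0.07, limma adjusted p = 3.3e-07). Tetraspanins included 3 that rose and 4 that fell among 16 tested (median 0.02), with CD9 1.58-fold lower. With the runs as a block, or without control siRNA replicate 1, 5 rose.

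The circadian clock list had the highest share past the test of lists with at least 7 members, 13 of 17, with 5 higher and 8 lower, median -0.19. CLOCK, which with BMAL1 drives the cycle, read 8.85, 8.77 and 8.75 with FECH siRNA, against 9.88, 9.82 and 9.97 with control siRNA, 2.14-fold lower (log2 fold change -1.10, SE 0.06, limma adjusted p = 1.7e-08), and BMAL1 was 1.36-fold higher. NFIL3, a repressor of clock output genes, was 2.06-fold higher (log2 fold change 1.04, SE 0.14, limma adjusted p = 7.0e-05), and PER3 was 1.89-fold lower (log2 fold change -0.92, SE 0.10, limma adjusted p = 1.1e-05). CRY1 and PER2, repressors in the loop, were 1.55-fold and 1.61-fold higher.

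Apoptosis genes included 10 that rose and 8 that fell among 37 tested, median 0.01. BMF, a pro-apoptotic BH3 protein, was 2.23-fold lower (log2 fold change -1.16, SE 0.10, limma adjusted p = 1.5e-06). BMF averaged 7.83 with FECH siRNA and 8.33 with 5-ALA only, against 8.99 with control siRNA. CASP6 averaged 6.82 with FECH siRNA and 7.86 with control siRNA, with the FECH siRNA mean under the filter level. APAF1, the scaffold of the apoptosome, was 1.70-fold higher (log2 fold change 0.76, SE 0.09, limma adjusted p = 2.0e-05). Without control siRNA replicate 2, 6 rose, and without control siRNA replicate 1 or 3, 5 fell. Matrix genes included 6 that rose and 9 that fell among 31 tested (median -0.07), with THBS2 2.22-fold lower and COL6A3 2.05-fold higher against a control siRNA mean of 7.13 that lies below the filter level.

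DNA repair genes included 9 that rose and 6 that fell among 40 tested, median 0. FANCC, a Fanconi anaemia protein, was 1.86-fold higher (log2 fold change 0.90, SE 0.12, limma adjusted p = 4.7e-05), and XRCC5, a Ku subunit, was 1.59-fold lower. With FECH siRNA replicate 1 or 2 left out, 5 rose, and without control siRNA replicate 2, 4 rose. Chromatin modifiers included 12 that rose and 11 that fell among 53 tested (median 0.01), with DOT1L, a histone H3 methyltransferase, 1.91-fold higher (log2 fold change 0.94, SE 0.10, limma adjusted p = 1.1e-05), and SIRT1 1.68-fold lower. Nuclear pore genes included 7 that rose and 7 that fell among 27 tested, median 0.1. With the runs as a block 11 rose, and without control siRNA replicate 2, 4 did. Splicing factors of the SR and hnRNP families included 2 that rose and 7 that fell among 30 tested (median -0.08), with HNRNPU 1.90-fold lower. With the runs as a block 12 fell, and without FECH siRNA replicate 2 or control siRNA replicate 1, 4 did. E2 ubiquitin-conjugating enzymes included 9 that rose and 5 that fell among 32 tested (median 0.06), with UBE2G2 1.77-fold higher. UBE2G2 averaged 9.86 with FECH siRNA, 9.04 with control siRNA and 9.56 with 5-ALA only. Without control siRNA replicate 2, 5 rose and 3 fell, and without FECH siRNA replicate 3 or control siRNA replicate 1, 2 fell.

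**Figure D4:**
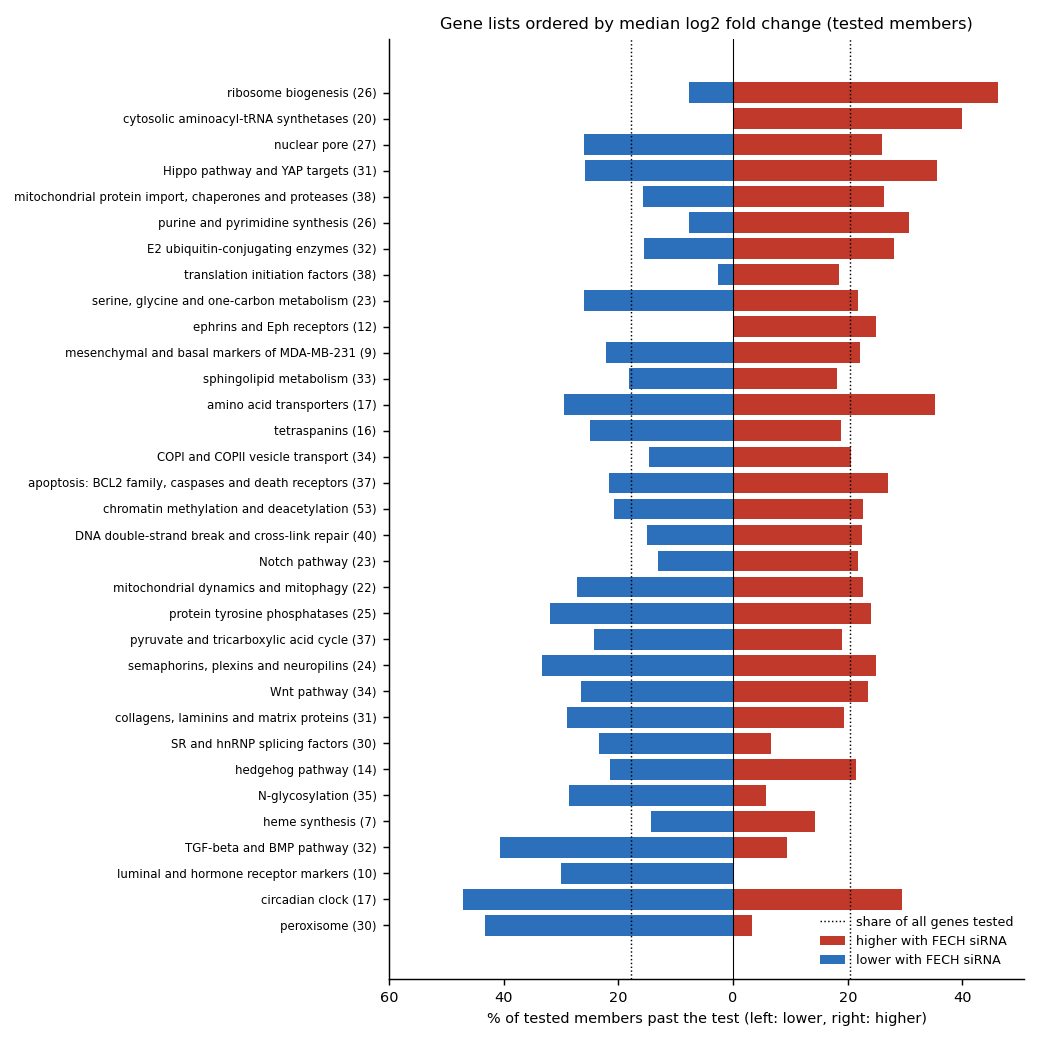
Share of tested members of each list past the limma test, higher with FECH siRNA to the right and lower to the left (horizontal axis, %), for lists of at least 7 tested members (number in brackets) that are reported here, ordered by median log2 fold change. The dotted lines are the shares over all genes tested, 20.4% higher and 17.8% lower.

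The label of the cells was checked against markers. Mesenchymal and basal markers of MDA-MB-231 summed to 52367 to 53695 linear signal units with FECH siRNA and 49285 to 51269 with control siRNA, and 9 of 10 lay above the filter level in both. CD44 and VIM averaged 13.31 and 12.38 with FECH siRNA, against 13.26 and 12.30 with control siRNA. SNAI2, a transcription factor of mesenchymal cells, was 1.94-fold higher (log2 fold change 0.95, SE 0.07, limma adjusted p = 1.5e-07). Of the 9 of these markers tested 2 rose and 2 fell (median 0.05), beside 20.4% and 17.8% of all genes tested. Without FECH siRNA replicate 3 or control siRNA replicate 2, 1 rose. ESR1 and PGR, the hormone receptors, lay below the filter level in both groups, at 6.45 and 5.69 with FECH siRNA and 6.38 and 5.76 with control siRNA.

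Luminal keratins moved with the comparison. The counts below stand beside 20.4% higher and 17.8% lower over all genes tested. Lists with 2 to 4 tested members are too small to be set against these shares. The 12 luminal and hormone receptor markers summed to 8843 to 9207 with FECH siRNA and 10934 to 11530 with control siRNA, and 9 of 12 lay above the filter level with FECH siRNA and 10 of 12 with control siRNA. Of 10 tested, 0 rose and 3 fell (median -0.17), the keratins KRT18, KRT8 and KRT19; at an unadjusted p below 0.05, 0 were higher and 4 lower. KRT18 read 10.03, 10.31 and 10.22 with FECH siRNA, against 11.06, 11.13 and 11.22 with control siRNA, 1.93-fold lower (log2 fold change -0.95, SE 0.10, limma adjusted p = 6.7e-06). Of the blood and immune markers, CD14 and PECAM1 fell, 2 of 3 tested (median -0.91). Of the 9 markers, 2 lay above the filter level with FECH siRNA and 3 with control siRNA, and their sum was 1596 to 1630 with FECH siRNA and 2578 to 2623 with control siRNA. CD14 averaged 9.73 with FECH siRNA and 10.64 with control siRNA, PECAM1 7.24 with FECH siRNA and 8.47 with control siRNA, and PTPRC, the defining leukocyte antigen, 4.99 with FECH siRNA and 5.01 with control siRNA, below the filter level in both groups. Fibroblast markers summed to 1993 to 2156 with FECH siRNA and 2244 to 2602 with control siRNA, with 3 of 8 above the filter level in both. DCN averaged 4.90 with FECH siRNA and 4.94 with control siRNA. Of 4 tested, 1 fell, PDGFRB (median -0.16), and 2 fell with the runs as a block or without control siRNA replicate 3. PDGFRB averaged 9.22 with FECH siRNA and 9.32 with 5-ALA only, against 9.65 with control siRNA. Erythroid markers summed to 802 to 879 with FECH siRNA and 833 to 908 with control siRNA, 2 of 8 were above the level, 0 of 2 passed limma and 0 had an unadjusted p below 0.05 (median -0.09), and HBB averaged 6.48 with FECH siRNA and 6.49 with control siRNA. Without control siRNA replicate 1, KLF1 passed as lower (adjusted p = 0.0153). The part of these markers in the results was not tested.

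The share of genes past the test varied with signal and with gene length. Genes were split into 10 bins of mean signal and 5 bins of length on the genome. In signal bin 1, the dimmest, 10.7% rose and 12.8% fell, and in signal bin 8, 26.4% rose and 21.7% fell. In signal bin 10, 20.6% rose and 19.8% fell. Among genes with a length in RefSeq, length bin 1, the shortest, held 13.8% higher and 10.8% lower, and length bin 5, the longest, 25.8% higher and 22.1% lower. Falls over 2-fold numbered 15 in length bin 1, 56 in bin 4 and 40 in bin 5, while rises over 2-fold numbered 27, 21 and 26 in those bins. The median length of the genes that fell over 2-fold was 45.8 kb, that of the genes that rose over 2-fold 27.1 kb and that of all tested genes 27.3 kb. Mean signal was not held constant in this split.

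**Figure D5:**
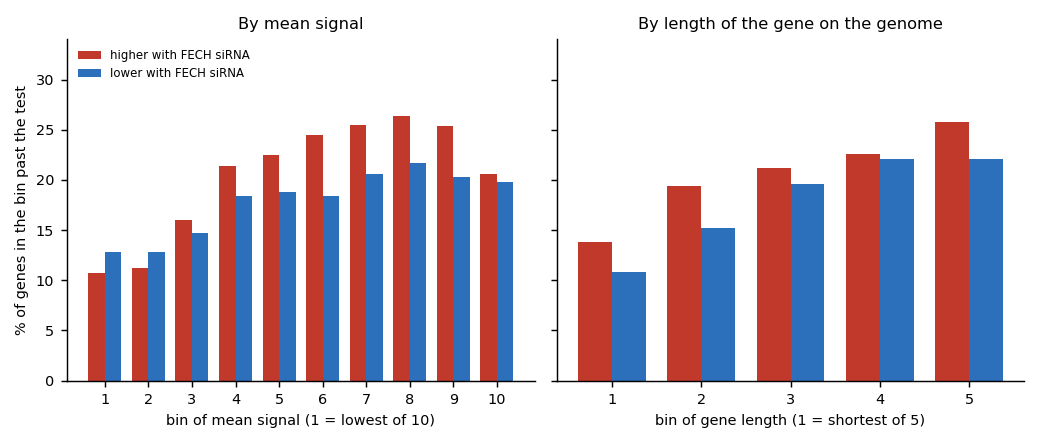
Percent of genes past the limma test (vertical axis) in each of 10 bins of mean signal (left) and 5 bins of gene length (right), higher with FECH siRNA in red and lower in blue. Both shares are low in the first bin of each panel, at 10.7% and 12.8% by signal and 13.8% and 10.8% by length.

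Promoters are described for the genes matched to RefSeq, 9469 of 12151, with windows of 250 bases before to 50 after the gene start. A total of 12 motifs were searched on both strands. The AP-1 site TGACTCA was in 9 of 86 promoters (10.5%) of genes that rose over 2-fold, in 7 of 134 (5.22%) of those that fell over 2-fold, in 3.04% of all tested promoters and in 4.92% of all RefSeq promoters. The TATA box TATAAA was in 14.0%, 8.96%, 5.63% and 12.0% of the same classes. The CArG box, the site bound by serum response factor, was in 2.33%, 0%, 1.14% and 1.29%, and the GC box GGGCGG in 51.2%, 65.7%, 71.1% and 44.6%. The EGR site GCGGGGGCG was in 4.65% of promoters of genes that rose over 2-fold, 10.4% of those that fell over 2-fold, 8.41% of all tested and 5.02% of all RefSeq promoters, and the E-box CACGTG in 4.65%, 8.96%, 10.4% and 7.43%. Values for the cyclic AMP response element TGACGTCA were 3.49%, 3.73%, 3.31% and 1.98%, and those for its shorter form TGACG, which the full element contains, 33.7%, 32.8% and 34.4% in the first 3 classes. The antioxidant response element core TGACNNNGC was in 17.4%, 14.2%, 15.3% and 13.6%, and the NF-Y box CCAAT in 43.0%, 40.3%, 36.2% and 35.7%. The ATF4 composite site TTGCATCA was in 1.16%, 1.49%, 0.539% and 0.923%, and the NF-kB site in 1.16%, 0.746%, 0.211% and 0.194%, which are 1 promoter each among the genes that rose over 2-fold. Median GC content was 57.7% in promoters of genes that rose over 2-fold, 64.8% in those that fell over 2-fold and 65.7% in all tested. A match is a description of these letters and is no site or cause.

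The EGR1 promoter is shown because EGR1 rose and because 2 CArG boxes lie in it. They begin 105 and 83 bases before the gene start and are in capitals (chr5:138465229-138465478, forward strand, GRCh38.p14).
EGR1: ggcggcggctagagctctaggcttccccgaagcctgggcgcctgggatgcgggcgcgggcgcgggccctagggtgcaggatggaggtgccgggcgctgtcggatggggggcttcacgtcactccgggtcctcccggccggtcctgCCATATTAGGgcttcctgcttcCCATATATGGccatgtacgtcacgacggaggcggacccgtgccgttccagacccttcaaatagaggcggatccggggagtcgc
Of the 9 genes that rose over 2-fold and hold an AP-1 site in a matched promoter, the 4 among the 20 largest rises with both means above the filter level are shown as 61-base windows, with the site in capitals. The sites begin 81, 215, 37 and 184 bases before the gene start in TMEM156 (chr4:39032457-39032517, reverse strand), ZNF138 (chr7:64794186-64794246, forward strand), F2RL2 (chr5:76623407-76623467, reverse strand) and LPXN (chr11:58578284-58578344, reverse strand), all in RefSeq sequence of GRCh38.p14.
TMEM156: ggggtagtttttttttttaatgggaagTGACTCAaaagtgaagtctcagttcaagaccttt
ZNF138: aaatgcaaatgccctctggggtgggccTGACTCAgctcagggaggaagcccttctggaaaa
F2RL2: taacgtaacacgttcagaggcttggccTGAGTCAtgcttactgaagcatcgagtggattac
LPXN: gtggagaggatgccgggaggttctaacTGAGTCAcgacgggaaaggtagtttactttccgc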

How the data were processed

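Total RNA of 12 MDA-MB-231 samples was hybridised to arrays with 28869 probe sets. The authors deposited signal intensity on a linear scale, made with RMA in oligo, per the submitters' processing notes; no version or genome build is given in the sources used here. The design had foreseen log2 values, and log2 of the deposited intensity was taken here with a pseudocount of 0. The workbook's 12 further value columns and 8 columns of group means were not used. The 19937 probe sets with 1 gene symbol were used; genes were kept if at least 3 of 12 arrays exceeded the median of all signals, a log2 of 7.29, with the brightest probe set per gene, which left 12151.

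Groups came from the labelled treatment. limma 3.58.1 in R 4.3.3 (with the data.table package, version 1.17.8) fitted 1 mean per group over all 12 arrays, and two-sided p-values were adjusted by Benjamini-Hochberg over all 12151 genes, with 0.05 as threshold. The fit was tested on simulated data. Named genes are FECH, ALAS1 and HMOX1; the 20 largest rises and 20 largest falls among genes past the test with non-overlapping groups and both means above the filter level; the 5 largest rises and falls in the top 10% of signal; among genes over 2-fold, the 10 of lowest p and the 3 that varied most between runs; and up to 4 members of each of 37 lists, or that of lowest p. Noncoding and provisional names were left out. Other genes named, such as list members beyond these, were chosen after their values were seen. The members and lists were chosen with earlier results of these data known.

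Runs of sample numbers (1 to 4, 5 to 8, 9 to 12) pair the samples: after removing group means, same-run samples correlated at 0.207 to 0.539 and different runs at 0.154 or below. The SE and p-values quoted leave this pairing out, as they come from the fit without runs unless the block is named. The alternatives were that run as a block, trended and robust variance, no filter, a stricter filter (percentile 70), the 6 arrays alone, cyclic loess, median centring, array weights, the mean of a gene's probe sets, the deposited series table, and leaving out each replicate. Of the 1086 symbols in the lists, 940 were tested. A few genes and 1 list are not reported here.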

Additional observations from a re-analysis of the deposited data

How the results depend on the processing

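The counts of genes higher and lower and the FECH change kept their direction and side of the threshold under all 16 alternatives. With the runs as a replicate block, 3059 genes were higher and 2624 lower (46.8% of those tested), 4649 of the 4651 genes still passed, and FECH stayed at -2.02. Without each replicate in turn, 1926 to 2287 genes were higher, 1850 to 1981 lower, and the FECH change was -2.06 to -1.97. Centring each array on its median, which shifted all genes by 0.03, gave 2683 higher and 1835 lower (59.4% of calls higher, against 53.4% as reported); cyclic loess gave 2428 and 2249, and no filter 2557 and 2249 of 19117 genes. Of the named genes, EFNA4, EGFR, EPHB2 and GDAP1 lost their call when 1 of certain replicates was left out, with adjusted p of 0.055 to 0.131. Of the list counts under these alternatives, 1101 stayed within 1.5 times the reported count and 83 did not; beyond those given beside the lists, the block moved no list count by more. The stricter filter, which tests fewer genes, gave 2 Wnt genes higher, 4 apoptosis genes lower, 3 clock genes higher, 5 semaphorin genes lower, 3 one-carbon genes higher, 1 blood marker lower and 0 peroxisome genes higher. No filter, which tests more, gave 11 matrix genes and 1 fibroblast marker higher. Array weights gave 11 vesicle genes, 6 TGF-beta genes, 5 tetraspanins and 2 peroxisome genes higher, and 5 Notch, 5 hedgehog and 5 luminal genes lower. With the 6 arrays alone, 8 one-carbon genes were higher, 3 E2 enzymes and 1 ephrin or Eph gene lower, and median centring left 3 E2 enzymes lower. Cyclic loess and trended variance each gave 2 tRNA synthetases and 2 initiation factors lower. For the settings that change neither genes nor samples, the cause was not tested. Detection values were not used here, so a mean below 7.29 is not shown to be above background.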

Other observations

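Probe sets outside the gene comparison were tested the same way. Of 1286 tested probe sets that carry several symbols, 174 were higher and 175 lower with FECH siRNA (27.1% called). Of 1123 with no symbol, 15 were higher and 15 lower (2.67%). In the gene comparison 38.3% were called. By nuclear chromosome, the share of genes lower with FECH siRNA ranged from 10.4% on chromosome 21 to 23.8% on chromosome 12, against 17.8% over all genes. Of 7 tested genes of the mitochondrial genome, 0 passed limma and 0 had an unadjusted p below 0.05. Over all genes these shares were 38.3% and 46.6%, and nothing is drawn from a count over 7 genes.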
